A study of Mus musculus with 2 samples.

Results

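The 7 mature microRNAs (miRNAs) described here are mmu-miR-218-5p, mmu-miR-338-3p, mmu-miR-204-5p, mmu-miR-135a-5p, mmu-miR-137-3p, mmu-miR-205-5p and mmu-miR-217-5p, written below without the mouse prefix. They were taken by name as reported regulators of the transcription factor Runx2 or of osteoblasts outside the miR-23, miR-30, miR-34 and miR-133 families. Earlier results of these data were known when they were chosen, and all 7 are described whatever their values. They are 7 of the 1247 mouse miRNAs on the arrays. Whether any of them acts on Runx2 in this tissue was not measured. Col2a1Tsc1KO mice carry a deletion of Tsc1 made specific to cells that use Col2a1, the type II collagen gene of cartilage. The control mice carry the genotype label wildtype. One-colour Agilent arrays were hybridised with total RNA of knee joint cartilage, 1 array for Col2a1Tsc1KO and 1 for control, both of male mice aged 8 weeks. The Cre line, the extent of Tsc1 loss and the number of mice behind each RNA are not given in the sources used here.

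A miRNA guides a silencing complex to messenger RNAs that pair with its seed, bases 2 to 8 from its 5′ end, and lowers their translation or stability. Runx2 drives the commitment of mesenchymal cells to bone-forming osteoblasts and the hypertrophy of chondrocytes before cartilage is replaced by bone. Tsc1 protein restrains the growth-promoting kinase complex mTORC1, and the study measured miRNAs in the cartilage of mice in which that restraint is removed while osteoarthritis develops.

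All 7 mature sequences were found in RefSeq (GRCm38.p6), and they are shown because no seed is shared between any of them. Capitals mark the seed, and each sequence runs 5′ to 3′.
miR-218-5p: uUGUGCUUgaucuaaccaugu
miR-338-3p: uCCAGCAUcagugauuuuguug
miR-204-5p: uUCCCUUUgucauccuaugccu
miR-135a-5p: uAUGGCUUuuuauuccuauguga
miR-137-3p: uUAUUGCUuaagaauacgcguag
miR-205-5p: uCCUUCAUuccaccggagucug
miR-217-5p: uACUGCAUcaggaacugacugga

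The 7 miRNAs come from 9 loci. miR-218-5p is made from Mir218-1 (mature bases at chr5:48223966-48223986, plus strand, within the span of Slit2) and from Mir218-2 (chr11:35616840-35616860, plus strand, within Slit3). Slit2 and Slit3 encode secreted guidance ligands. miR-338-3p lies at chr11:120014781-120014802 on the minus strand within Aatk, where Mir3065 overlaps it. miR-204-5p lies at chr19:22750610-22750631 on the plus strand within the ion channel gene Trpm3. miR-135a-5p comes from chr9:106154140-106154162 (plus strand, spans of Glyctk and D030055H07Rik) and chr10:92072141-92072163 (minus strand, in no other annotated gene). miR-137-3p lies at chr3:118433901-118433923 (plus strand, in no other annotated gene), miR-205-5p at chr1:193507503-193507524 (minus strand, Mir205hg) and miR-217-5p at chr11:28763761-28763783 (plus strand, Gm40818).

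Each array held 52044 spots, of which 49880 belonged to 3101 probes for mouse miRNAs. The scanner software marked 21.1% of miRNA spots well above background on the Col2a1Tsc1KO array and 19.6% on the control array, and no spot was saturated. A probe was taken to be well above background where the mark was on more than 50% of its usable spots, and a miRNA where at least 1 of its probes was. Unless called scaled, intensities are the software's background-subtracted spot values, and negative-control spots had medians of 4.89 on the Col2a1Tsc1KO array and 4.96 on the control array. Differences are on the log2 scale, Col2a1Tsc1KO minus control, after scaling. The scaling set the 75th percentile of each array equal, counted over the 476 probes that passed this mark on both. With 1 array per group there is no replicate, so no p-value was computed. Each standard error (SE) covers spots within arrays alone, and spots of 1 probe share a sample. In RNA of whole tissue, fewer cells of a type and less RNA per cell cannot be told apart.

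Cartilage and other cell types were both represented in the RNA. All 4 chondrocyte markers (both arms of miR-140 and of miR-455) passed on both arrays. Their scaled intensities summed to 5268 in Col2a1Tsc1KO and 2322 in control. The 4 muscle markers summed to 737 in Col2a1Tsc1KO and 1410 in control, and the 4 leukocyte markers to 4454 in Col2a1Tsc1KO and 9633 in control. Red cell markers, 2 of 2 detected, summed to 3472 in Col2a1Tsc1KO and 2340 in control, and endothelial markers, 2 of 2, to 1977 in Col2a1Tsc1KO and 1555 in control. Single markers did not all follow their sums, which rest mostly on the brightest ones. Among the chondrocyte markers miR-455-5p was at -0.03 ± 0.14, within its SE, with a sign that turned in 9 of 12 other settings. The muscle marker miR-206-3p was at 0.05 ± 0.08, within its SE, with a sign that turned in 2 of 12 other settings. The leukocyte sum was mostly miR-223-3p, 3632 in Col2a1Tsc1KO and 8163 in control, while miR-150-5p was higher in Col2a1Tsc1KO, at 0.64 ± 0.06, a sign that turned only with the software's total gene signal among 13 other settings. The red cell sum was mostly miR-451a, 3380 in Col2a1Tsc1KO and 2308 in control. The other red cell marker, miR-144-3p, was at 1.51 ± 0.04 and stayed above 0 in all 13 other settings. The endothelial sum was mostly miR-126-3p, 1908 in Col2a1Tsc1KO and 1492 in control. Its opposite arm miR-126-5p was at 0.14 ± 0.04 and also stayed above 0 in all 13. miR-451a and miR-126-3p turned lower in Col2a1Tsc1KO with quantile normalization, both alone and after normexp background correction. The setting called normexp below holds both steps, so these settings share the quantile step. The part of the marker differences in the results that follow was not tested.

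Of the 7 miRNAs, 3 were well above background on both arrays, miR-218-5p, miR-338-3p and miR-204-5p, and 4 were so on neither. Over all miRNAs on the arrays, 20.6% were well above background on both. miR-218-5p was at least 2-fold higher in Col2a1Tsc1KO, 1 of the 3 that could be compared, while 15.6% of the 257 miRNAs measured on both arrays were. None of the 3 was at least 2-fold lower, against 17.5% of the 257, and 33.1% of the 257 were at least 2-fold apart in either direction. Above 0 lay 2 of the 3 (40.9% of the 257), and below 0 lay 1 of the 3 (59.1% of the 257). Over all 257 the median difference was -0.22 after scaling and 0.19 without it, so a difference near these values follows the bulk of the miRNAs on its scale.

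miR-218-5p, reported to promote osteoblast differentiation of bone marrow stromal cells by repressing inhibitors of Wnt signalling, was read by 2 probes. They are shown because they end within its seed and differ by the last base alone, in capitals, which pairs with seed base 2.
19-base probe: acatggttagatcaagcac
20-base probe: acatggttagatcaagcacA
The 19-base probe had spot intensities from 111 through a median of 132 to 152 in Col2a1Tsc1KO (20 spots), and from 18.9 through 28.2 to 35.9 in control (19 spots). The 20-base probe had 165, 184.5 and 201 as its lowest, median and highest spot in Col2a1Tsc1KO (20 spots), and 32.2, 41.8 and 47.6 in control (19 spots). For both probes every Col2a1Tsc1KO spot was brighter than every control spot, before and after scaling. In control, 17 of 19 spots of the 19-base probe and 19 of 19 of the 20-base probe were marked well above background, and in Col2a1Tsc1KO all 20 of each were.

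**Figure D1:**
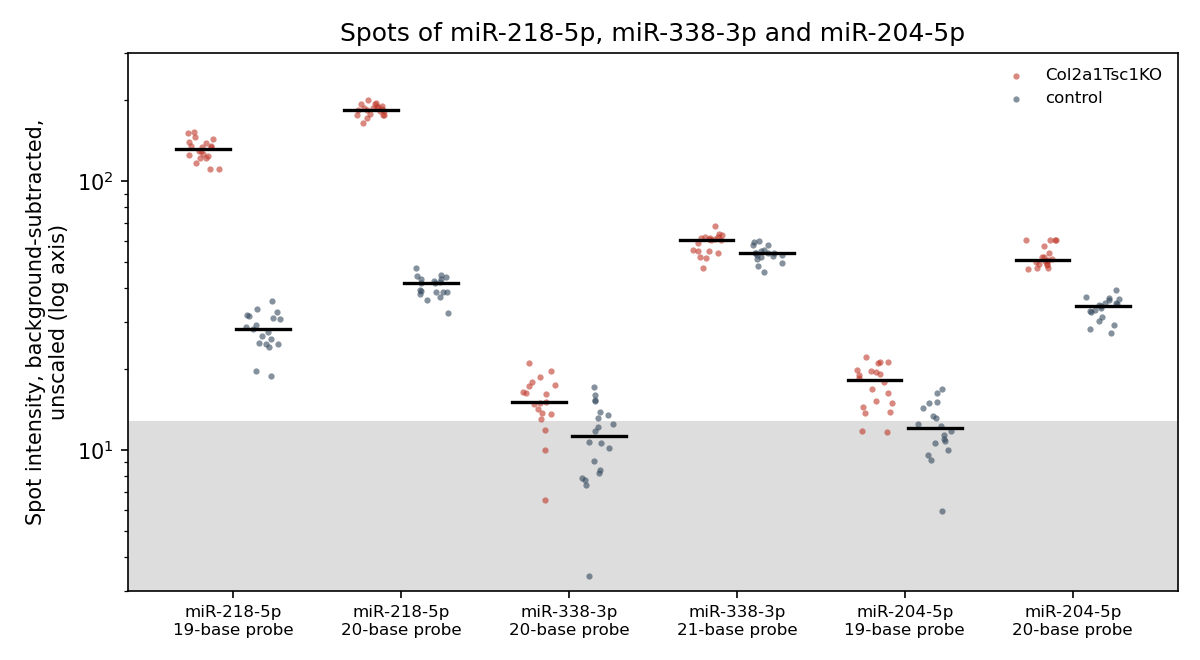
Background-subtracted, unscaled spot intensity on a log axis for the 2 probes each of miR-218-5p, miR-338-3p and miR-204-5p, with Col2a1Tsc1KO to the left of control. Each point is 1 spot, the black line is the median, and the grey band ends at the upper edge of the central 95% of the control array's negative-control spots, 12.7 (11.8 on the Col2a1Tsc1KO array). Only the spots of miR-218-5p and of the longer miR-204-5p probe do not overlap between the arrays.

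The difference of miR-218-5p was 1.80 ± 0.04 (SE over spots), or 3.49-fold, from scaled intensities of 135 in Col2a1Tsc1KO and 38.6 in control. Its probes gave much the same value, 1.84 ± 0.06 for the 19-base probe and 1.77 ± 0.03 for the 20-base probe. At the 19 places of each probe with a usable spot on both arrays, the Col2a1Tsc1KO spot was brighter at 19. The difference was near equal in both parts of the array. It was 1.80 in the upper and 1.89 in the lower part for the 19-base probe, and 1.80 in the upper and 1.75 in the lower part for the 20-base probe.

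The difference was also present before the software subtracted any background. Raw spot medians of the 19-base probe were 184 in Col2a1Tsc1KO and 82.7 in control, and those of the 20-base probe were 239 in Col2a1Tsc1KO and 95.8 in control. The dimmest raw Col2a1Tsc1KO spots, 164 and 219, exceeded the brightest raw control spots, 89.1 and 102. The local background beside these spots was near equal, with medians of 27 and 28 in Col2a1Tsc1KO and 26 and 27 in control.

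Since miR-218-5p was dim in control, it was set beside miRNAs of like brightness there. Of the 60 others within 0.5 log2 units of its scaled control intensity, 10 were at least 2-fold higher in Col2a1Tsc1KO, their median difference was -0.08 and the highest was 2.36. The 5 nearest in control intensity were miR-204-5p, miR-99b-5p, miR-1194, miR-5113 and miR-193b-3p, whose differences ran from -0.46 to 1.69. All of these were well above background on both arrays, so any that fell below that level in Col2a1Tsc1KO are not counted. Among those counted, differences ran in both directions, with large decreases less likely to be seen.

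The miRNAs whose difference lay nearest to that of miR-218-5p, over these 2 arrays, were miR-455-3p (1.71), miR-193b-3p and miR-196b-5p (both 1.69), let-7e-5p (1.62) and miR-23b-3p (1.56). The gaps to miR-218-5p were 0.10 to 0.25. Of these, miR-455-3p is a chondrocyte marker, and its scaled intensity was 104.7 in Col2a1Tsc1KO and 32.1 in control.

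The mature miR-218-5p does not tell its 2 loci apart, because both hairpins hold the same 5p arm. The hairpins are shown because the 3p arms differ and could have told them apart. Capitals mark the 5p and 3p arms.
Mir218-1 (chr5:48223942-48224051, plus strand): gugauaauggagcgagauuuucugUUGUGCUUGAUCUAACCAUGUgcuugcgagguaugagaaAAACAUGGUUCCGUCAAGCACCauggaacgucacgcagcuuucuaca
Mir218-2 (chr11:35616816-35616925, plus strand): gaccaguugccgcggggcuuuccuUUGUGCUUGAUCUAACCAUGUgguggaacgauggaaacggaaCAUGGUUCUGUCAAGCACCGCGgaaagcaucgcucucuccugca
Neither 3p arm was well above background. The 4 probes of miR-218-1-3p had spot medians between -5.41 and -0.112 in Col2a1Tsc1KO and between -3.24 and -1.31 in control. Those of miR-218-2-3p lay between -7.01 and -3.82 in Col2a1Tsc1KO and between -7.79 and -3.69 in control. Which locus gave the miR-218-5p signal could not be determined from these arrays.

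miR-338-3p, reported to repress Runx2 and Fgfr2 in mouse osteoblast precursors and known for its part in oligodendrocyte maturation, was read by 2 probes of unequal strength. The last base of the longer one, in capitals, pairs with seed base 2, and the shorter one lacks it.
20-base probe: caacaaaatcactgatgctg
21-base probe: caacaaaatcactgatgctgG
The 21-base probe had 47.7, 60.4 and 68.2 as its lowest, median and highest spot in Col2a1Tsc1KO (19 spots), and 46.0, 53.95 and 60.1 in control (18 spots), all well above background. The ranges of the arrays overlapped. The 20-base probe had 6.5, 15.1 and 21.0 in Col2a1Tsc1KO, with 1 of 19 spots well above background, and 3.41, 11.25 and 17.2 in control, with 0 of 20.

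For miR-338-3p even the direction rested on the scaling. The 21-base probe gave -0.29 ± 0.04, or 1.22-fold lower in Col2a1Tsc1KO, after scaling, but 0.12, higher in Col2a1Tsc1KO, on unscaled intensities and 0.15 when all probes set the 75th percentile. Before scaling the Col2a1Tsc1KO spot was brighter at 14 of 17 usable places. The scaled value lay close to the median of all 257 miRNAs, -0.22, and so did the unscaled value to its median, 0.19. The part of the array made little difference, with -0.21 in the upper and -0.35 in the lower part.

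miR-204-5p, which represses Runx2 in mesenchymal progenitors and favours fat over bone formation, also had a brighter and a dimmer probe. These are shown with the capital on the base that the longer probe adds.
19-base probe: aggcataggatgacaaagg
20-base probe: aggcataggatgacaaaggG
The 20-base probe had 47.3, 50.8 and 60.7 as its lowest, median and highest spot in Col2a1Tsc1KO, and 27.2, 34.2 and 39.5 in control (19 spots each), all well above background. Unscaled, the arrays did not overlap, and the Col2a1Tsc1KO spot was brighter at 18 of 18 usable places. After scaling they did overlap, from 41.0 to 52.6 in Col2a1Tsc1KO and from 31.4 to 45.5 in control. The 19-base probe had 11.7, 18.25 and 22.1 in Col2a1Tsc1KO, with 4 of 20 spots well above background, and 5.91, 12.05 and 16.8 in control, with 0 of 18.

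The difference of miR-204-5p was 0.24 ± 0.04 after scaling, or 1.18-fold, with scaled intensities of 45.5 in Col2a1Tsc1KO and 38.5 in control. Without scaling it was 0.65, or 1.57-fold. It stayed above 0 in each of the 14 other settings tried for it, from 0.12 to 1.15, and at the main setting and 13 of these it exceeded the median of all miRNAs by 0.12 to 0.85. The lowest excess, 0.12, came with dim values set to a floor. Most miRNAs then stand at the floor on both arrays and their median is 0, so that excess only restates the sign. It was under 2-fold in all of them except with the software's total gene signal.

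**Figure D2:**
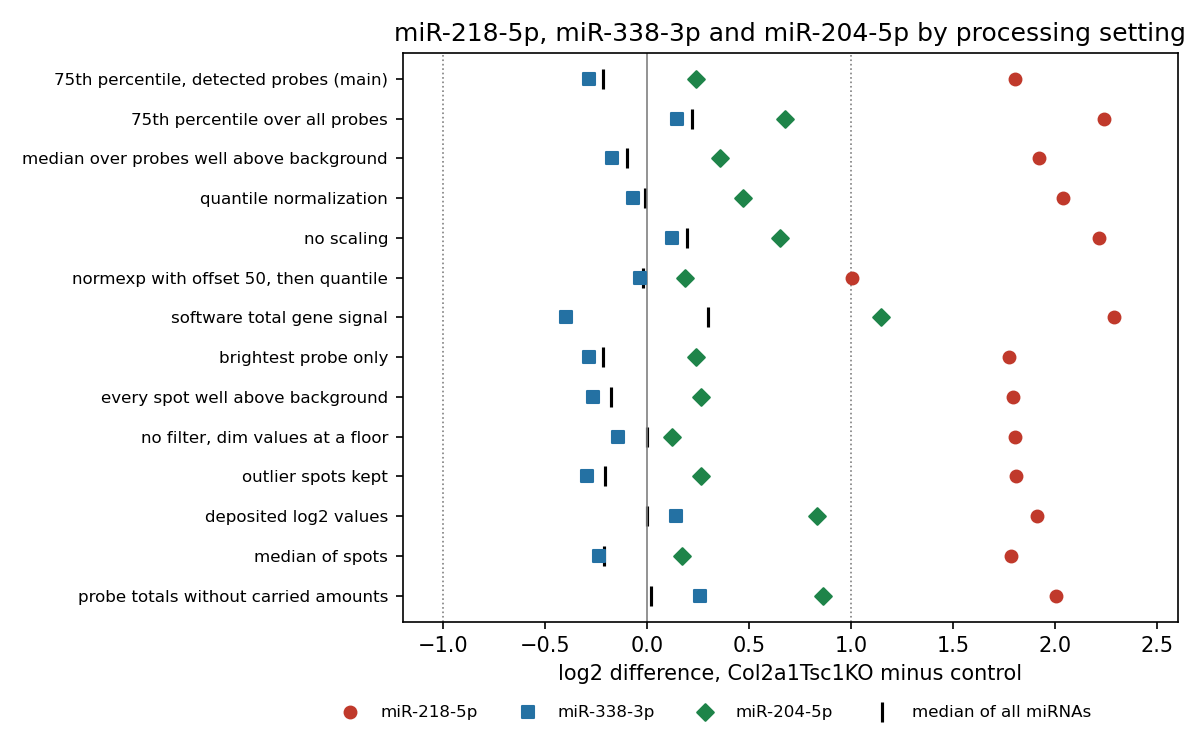
log2 difference, Col2a1Tsc1KO minus control, of miR-218-5p (circles), miR-338-3p (squares) and miR-204-5p (diamonds) under 14 processing settings, with the median of all miRNAs measured in that setting as a vertical tick and dotted lines at 2-fold. miR-218-5p runs from 1.004 to 2.29 and stays right of every tick, while miR-338-3p lies left of the tick in 12 of the 14 settings, and left of 0 in 10. With dim values at a floor the tick is at 0 because most miRNAs stand at the floor on both arrays.

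miR-204-5p has a close relative, miR-211-5p, with the same seed and 1 base changed, A17U (miR-204-5p first, positions counted from 1 at the 5′ end). The 20-base probes of the 2 miRNAs are set side by side because this base, in capitals, is the only one that separates them.
miR-204-5p probe: aggcaTaggatgacaaaggg
miR-211-5p probe: aggcaAaggatgacaaaggg
On the miR-211-5p probe the spot medians were 2.84 in Col2a1Tsc1KO and 6.19 in control, within the range of negative controls, and no spot was well above background on either array. The same miR-204-5p stretch gave 50.8 in Col2a1Tsc1KO and 34.2 in control. All 4 probes of miR-211-5p were without a spot well above background. miR-135b-5p, a relative of miR-135a-5p, was not well above background on either array.

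miR-135a-5p, reported to repress the bone morphogenetic protein mediator Smad5 in osteoblast lineages, had no spot well above background. Its 22-base probe had a median of 2.81 in Col2a1Tsc1KO (-2.54 to 7.41) and 2.20 in control (-4.40 to 6.56). Its 23-base probe had 4.50 in Col2a1Tsc1KO (-2.30 to 10.8) and 3.15 in control (-3.95 to 8.58). The medians of both probes lay within the range of the negative-control spots on both arrays.

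miR-137-3p, best known from neural differentiation, had medians of -2.96 and -1.02 on its 2 probes in Col2a1Tsc1KO, and -3.55 and -2.59 in control. miR-205-5p, an epithelial miRNA that represses Zeb1 and Zeb2, had medians of -1.18 and -1.15 in Col2a1Tsc1KO, and -2.36 and -1.53 in control. Its probes have only 15 and 16 bases and leave the seed nearly uncovered, as they pair with bases 8 to 22 and 7 to 22. miR-217-5p, a miRNA of the exocrine pancreas, had medians between -9.90 and -5.66 on its 4 probes of 12 to 15 bases in Col2a1Tsc1KO and between -11 and -4.92 in control. Every spot of miR-217-5p was below 0 on both arrays.

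Most markers of the tissues these miRNAs are best known from were not well above background. Of all 1247 miRNAs on the arrays, 927 were so on neither, so the counts below do not single out these tissues. Of the epithelial markers, miR-200a-3p, miR-200b-3p, miR-200c-3p, miR-141-3p, miR-429-3p and miR-203-3p, 0 of 6 were well above background on either array. Of the pancreatic markers miR-375-3p, miR-216a-5p and miR-216b-5p, 0 of 3 were. Of the neural markers, miR-124-3p and miR-9-5p were not, and miR-128-3p was on both arrays, with scaled intensities of 36.2 in Col2a1Tsc1KO and 50.5 in control.

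**Figure D3:**
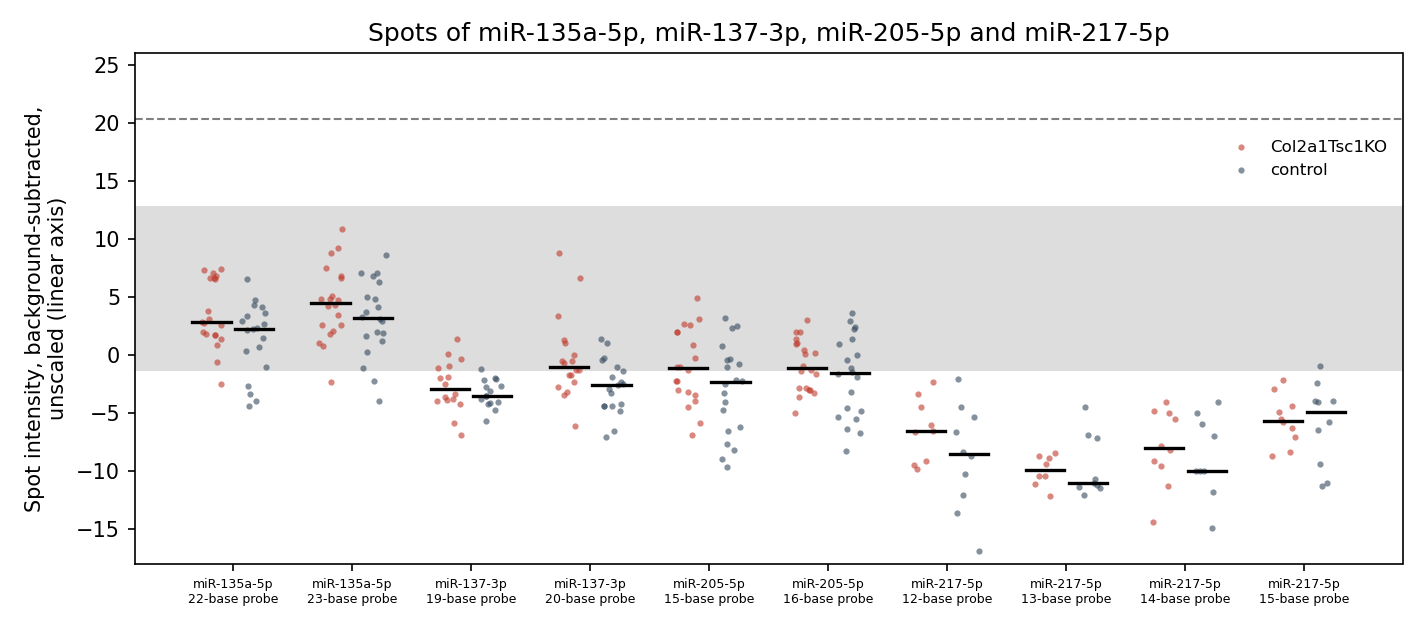
Background-subtracted, unscaled spot intensity on a linear axis for every probe of miR-135a-5p, miR-137-3p, miR-205-5p and miR-217-5p, with Col2a1Tsc1KO to the left of control. Points are spots and black lines medians, and the grey band runs from -1.29, the lower edge of the central 95% of negative-control spots in Col2a1Tsc1KO, to 12.7, its upper edge in control. The dashed line is the dimmest spot on either array that was well above background, 20.3, and no plotted spot reaches it.

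A level below background on such probes sets only a limit. The dimmest miRNA spot marked well above background had an intensity of 20.3 in Col2a1Tsc1KO and 21.9 in control, so a difference between the arrays under these levels was not detectable. In the deposited log2 values these 4 miRNAs stood at the floor of their column, -3.32 in Col2a1Tsc1KO and -3.26 in control, and no comparison was drawn from them.

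Of the 9 opposite arms of these hairpins on the array, 1 was well above background on both arrays, against 20.6% of all miRNAs. This was miR-135a-1-3p, at -0.066 ± 0.088, a value within its SE whose sign turned in 10 of 13 other settings. It was read by short probes rich in G and C, the longest cgccacggctccA, which pair with at most 13 bases at its 3′ end. Its partner arm miR-135a-5p, from the same hairpin Mir135a-1, was at background. miR-211-3p, the opposite arm of the undetected miR-211-5p, was at -0.36 ± 0.01, which turned positive in 3 settings, these being unscaled intensities, the software's total gene signal and the 75th percentile over all probes. Its probes, the longest gcccccctttgcT, are likewise short.

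The software also wrote a total signal per miRNA. Summing the probe totals that exceeded 3 times their error gave this value within 0.1% for 256 of 348 detected miRNAs in Col2a1Tsc1KO and 245 of 327 in control, while for 92 in Col2a1Tsc1KO and 81 in control the software's total was higher than the sum. For miR-218-5p both probes passed this limit on both arrays, and the totals were 124.6 in Col2a1Tsc1KO and 26.8 in control. For miR-204-5p both passed in Col2a1Tsc1KO and 1 in control, with totals of 27.7 in Col2a1Tsc1KO and 13.1 in control. The 20-base probe alone had totals of 20.8 in Col2a1Tsc1KO and 13.1 in control.

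For miR-338-3p the totals ran against each other. The software wrote 29.2 in Col2a1Tsc1KO and 40.4 in control, although the probes past the error limit summed to 29.2 in Col2a1Tsc1KO (2 probes) and 21.0 in control (1 probe). The control total exceeded that sum by 19.3, more than the 4.39 of the other miR-338-3p probe. The software's total thus gave a scaled difference of -0.40, and the summed probes 0.26. In the deposited log2 values miR-338-3p stood at 4.71 in Col2a1Tsc1KO and 4.57 in control, miR-204-5p at 4.65 in Col2a1Tsc1KO and 3.81 in control, and miR-218-5p at 6.77 in Col2a1Tsc1KO and 4.86 in control.

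Over 15 other settings, single probes included, miR-218-5p stayed above 0, between 1.004 and 2.29. The lowest value came after normexp background correction followed by quantile normalization. The correction adds an offset of 50 to each intensity and so shrinks the differences of dim miRNAs. Set against the median of all miRNAs in 14 settings, miR-218-5p stood above it by 1.02 to 2.05. Its rank among all miRNAs compared ran from 3 to 16, with rank 16 after normexp.

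The other miRNAs reported to repress Runx2 gave a wider picture of the same regulators. All 13 on the list, from the miR-23, miR-30, miR-34 and miR-133 families and miR-103-3p, were well above background on at least 1 array, 11 on both and 2 in Col2a1Tsc1KO alone. Over all 1247 miRNAs, 257 were so on both arrays and 39 in Col2a1Tsc1KO alone. Of the 11, 3 were at least 2-fold higher (15.6% of all 257) and 0 at least 2-fold lower (17.5%), and 9 lay above 0 (40.9%). The count of 0 lower was a narrow one, as miR-133a-3p and miR-133b-3p were each 1.99-fold lower. It stayed 0 in the other settings. The 3 past 2-fold became 5 on unscaled intensities or when all probes set the 75th percentile. Over all 257 miRNAs, 59 were at least 2-fold higher in either setting. The 3 became 6 with the software's total gene signal (80 of all 304 compared) and 4 with summed probe totals (60 of 303). They became 2 after normexp (16 of 257) or in the deposited log2 values (51 of 304). The median of the 11 was 0.49, against -0.22 over all 257. The list was chosen with earlier results of these data known, and several of its miRNAs share a family. The contrast with all miRNAs is therefore descriptive alone. The 11 signs were the same in each of the 13 other settings.

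miR-34a-5p, a p53-induced miRNA, stood at 2.28 ± 0.04, from scaled intensities of 203 in Col2a1Tsc1KO and 41.9 in control. Its relatives miR-34b-5p and miR-34c-5p, made from another locus, were at least 1.103-fold and 1.03-fold higher in Col2a1Tsc1KO, a bound set by the scaled limit of 24.9 in control. At the main scaling these bounds exceed 1 only slightly. miR-23b-3p and miR-23a-3p, which share a seed, stood at 1.56 ± 0.01 and 1.23 ± 0.01.

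The 5 miR-30 members, which also repress Runx2 in mouse osteoblast precursors, lay between 0.47 and 0.88 at the main scaling, under 2-fold. Unscaled, miR-30a-5p at 1.29 and miR-30b-5p at 1.01 passed 2-fold. Their sequences are much alike, so that probes may share signal, which was not tested. Below 0 lay the muscle miRNAs miR-133a-3p at -0.99 ± 0.02 and miR-133b-3p at -0.996 ± 0.02. miR-1a-3p, which marks muscle without being on the Runx2 list, was at -0.94 ± 0.02. The remaining muscle marker, miR-206-3p, did not follow them, at 0.05 ± 0.08.

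**Figure D4:**
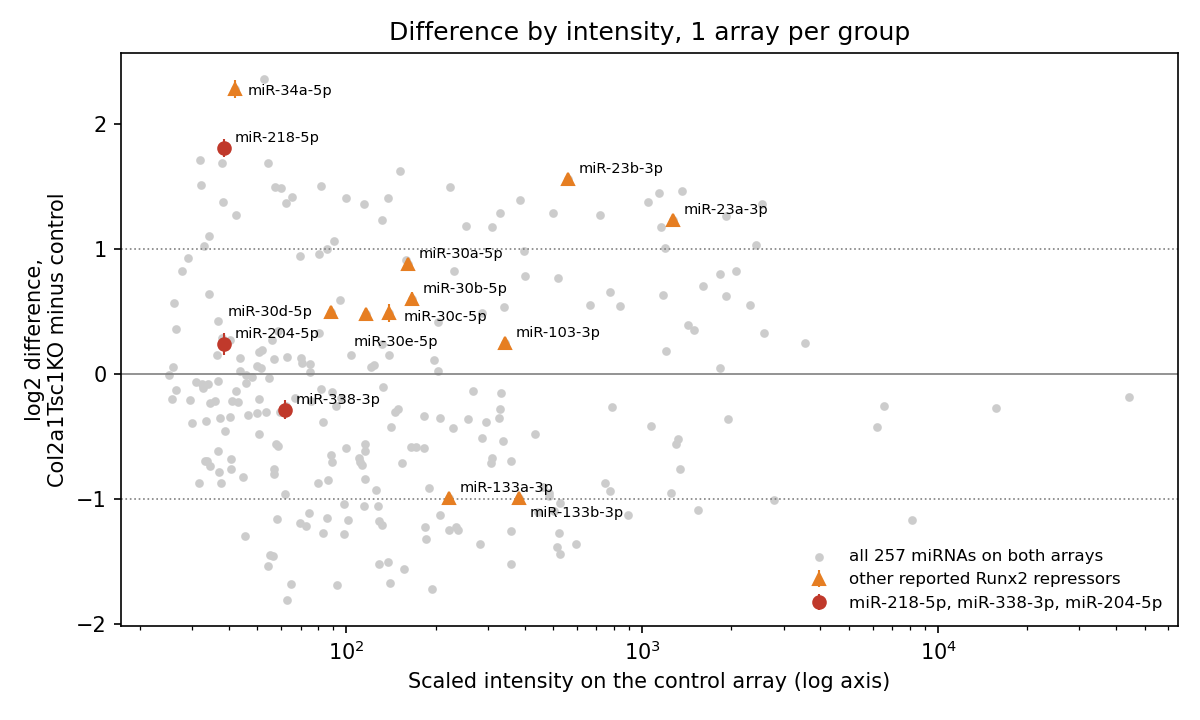
log2 difference, Col2a1Tsc1KO minus control, against scaled intensity in control (log axis) for the 257 miRNAs well above background on both arrays (grey), with 11 other reported Runx2 repressors as triangles and miR-218-5p, miR-338-3p and miR-204-5p as circles. Bars show 2 SE over spots, and dotted lines mark 2-fold. miR-218-5p at 1.80 lies near the top of the dim miRNAs, while miR-204-5p at 0.24 and miR-338-3p at -0.29 lie among the bulk.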

How the data were processed

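Knee cartilage miRNAs were measured on 2 one-colour (Cy3) arrays, 1 per group, on 1 slide, so slide position and group cannot be told apart. Agilent Feature Extraction 10.7, named in the submitters' processing notes, made the deposited intensity values per the file headers: a raw mean, a local background and a background-subtracted intensity per spot, with outlier and well-above-background flags, and totals per probe and miRNA. The deposited log2 table has a column median of -3.32 for Col2a1Tsc1KO and -3.26 for control, which are its floors. Its scaling and centring stay unknown here. Its differences had the sign of the scaled scanner differences for 223 of 257 miRNAs, so the columns run the way they are labelled.

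Outlier spots were dropped, log2 background-subtracted intensity was averaged per probe, and each array was scaled to the 75th percentile named above, which moved all differences by 0.41. A miRNA's difference is the mean over probes well above background on both arrays. For a miRNA well above background on 1 array, a bound was set: its signal there, divided by either the lowest signal that passed on the other array or the probe's own signal on it, whichever was larger. A log2 difference of 1 was used for counts. Precision is limited by the number of arrays.

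The members, the lists and the alternatives were chosen with earlier results of these data known. Named were all 7 members, their opposite arms and same-seed relatives, 13 other reported Runx2 repressors, up to 5 miRNAs nearest in control intensity to each detected member and up to 5 nearest in difference to miR-218-5p, besides the fixed marker and osteoblast lists. Sequences and positions are RefSeq's, 7 of 7 members and 12 of 13 relatives matched. The steps were run on the control array against a copy of it, spots redrawn within probes, with known shifts added to some miRNAs. That copy holds no difference between arrays, so the scaling was not tested by it. Python 3.11.15, pandas 2.3.3, R 4.3.3 and limma 3.58.1 (normexp) were used.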

Additional observations from a re-analysis of the deposited data

How the results depend on the processing

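The median over all miRNAs, -0.22, moved by 0.43 when all probes set the 75th percentile, 0.41 without scaling, 0.12 with median scaling, 0.21 with quantile normalization, 0.20 after normexp, 0.51 with total gene signals, 0.22 with a floor, 0.22 in the deposited log2 values and 0.23 with probe totals. In that order the difference of miR-218-5p, 1.80, was 2.24, 2.22, 1.92, 2.04, 1.004, 2.29, 1.80, 1.91 and 2.00. miR-338-3p, at -0.29, was 0.15, 0.12, -0.17, -0.070, -0.035, -0.40, -0.14, 0.14 and 0.26, so its direction turned in 4. miR-204-5p, at 0.24, was 0.67, 0.65, 0.36, 0.47, 0.18, 1.15, 0.12, 0.83 and 0.86. The first 3 of these scalings add a constant to every difference. The floor sets dim values equal on both arrays, so the median over 1247 miRNAs was 0. The dim probes of miR-338-3p and miR-204-5p then counted as 0. For the remaining settings, the offset of normexp apart, the cause was not tested. With all probes of a miRNA, the dim one included, miR-338-3p was -0.13 and miR-204-5p 0.17. That setting and the probe totals were chosen after seeing the data.

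The split of miRNAs past 2-fold, 40 higher and 45 lower in Col2a1Tsc1KO of 257, became 59 and 13 without scaling or when all probes set the 75th percentile. It was 16 and 9 after normexp, also of 257, and 80 and 24 of 304 with total gene signals. With probe totals it was 60 and 40 of 303, and in the deposited log2 values 51 and 54 of 304. The settings thus differ in the number of miRNAs compared. The number of the 7 miRNAs well above background on both arrays stayed 3 whether 1 spot or every spot was required. No paired analysis was possible because each group has 1 array, and neither leaving out a replicate nor a slide block could be run. Signal over background limits miR-135a-5p, miR-137-3p, miR-205-5p and miR-217-5p, for which no difference could be measured.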

Other observations

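A list of 18 other miRNAs reported to act in osteoblasts, chosen with earlier results of these data known, was counted beside the Runx2 regulators. Of these, 17 were well above background on both arrays, against 20.6% of all 1247 miRNAs. Their median difference was 0.62 against -0.22 over all 257 miRNAs, and miR-335-5p was so in Col2a1Tsc1KO alone, at least 2.14-fold higher. At least 2-fold higher in Col2a1Tsc1KO were 6 of the 17, against 15.6% of all: miR-214-3p at 2.36 ± 0.03, which represses the bone factor Atf4, miR-196a-5p at 1.499 ± 0.03, the hypoxia-induced miR-210-3p at 1.42 ± 0.03, miR-199b-5p at 1.39 ± 0.02, miR-27a-3p at 1.27 ± 0.01 and miR-125b-5p at 1.18 ± 0.01. At least 2-fold lower was 1 of the 17, miR-20a-5p of the miR-17-92 cluster at -1.13 ± 0.01, against 17.5% of all. On unscaled intensities these counts became 9 and 0, as miR-29a-3p (1.04), miR-29c-3p (1.19) and miR-26a-5p (1.21) passed 2-fold and miR-20a-5p, at -0.72, did not. Over all 257 miRNAs the unscaled counts were 59 and 13. After normexp the list gave 3 and 1, and all 257 gave 16 and 9.

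The miR-29 members, which repress collagen messenger RNAs, lay at the main scaling at 0.62 for miR-29a-3p, 0.49 for miR-29b-3p and 0.78 for miR-29c-3p. The clustered miR-2861 and miR-3960, both reported to promote osteoblast differentiation by raising Runx2 in mouse, stood apart from each other, at 0.11 ± 0.02 and -0.76 ± 0.01, and each kept its sign in the 13 other settings. miR-21a-5p at 0.25 turned negative with quantile normalization, alone or after normexp correction, and in the deposited log2 values. miR-222-3p at -0.23 turned positive in 5 settings.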
